A study of Mus musculus with 32 samples.

Results

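Matrix metalloproteinases and their tissue inhibitors (TIMPs) were followed in whole-lung RNA of newborn mice through 10 genes: Mmp2, Mmp3, Mmp8, Mmp9, Mmp10, Mmp12, Mmp14, Timp1, Timp2 and Timp3. They were found by gene name on 12 of the 55681 mouse probes of the array, which carried 35715 gene names in all. The set was not drawn blind: Mmp10 was selected on its measured rise in 85% O2 at P14, so its oxygen values at that age are a description with no test.

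The lungs came from 32 C57Bl/6J pups of both sexes, each hybridised to an array of its own, in 8 groups of 4. Every pup received a locked nucleic acid oligonucleotide shortly after birth, either one directed at miR-34a (antimiR-34a, named an antagomiR in the labels) or a scrambled sequence, so no group was untreated. Pups were kept in 21% O2 (normoxia) or 85% O2 (hyperoxia), the latter being a mouse model of bronchopulmonary dysplasia, the arrested formation of alveoli seen in preterm infants. Lungs were perfused and taken at post-natal day 5 (P5) or 14 (P14). The protocol text of the labels places both ages slightly later, and it names other drugs for euthanasia at P14 and another RNA kit than the methods do. The study asked what blocking miR-34a changes in normal and in oxygen-exposed lungs.

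Levels are log2 signals from which the array's 75th percentile was subtracted, so a level of 0 is the signal of the probe at that percentile. Levels of different probes were not compared with each other. Each of the 4 slides held 1 age and 1 oxygen level, so oxygen level and age cannot be told apart from slide. Both oligonucleotides lay on each slide, but each on its own row of arrays. Between 33606 and 40774 probes per array were well above background. All 10 epithelial and all 10 endothelial markers, among them the surfactant gene Sftpc and the endothelial cadherin Cdh5, were well above background on every array.

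4 arrays were picked as standing apart. In scrambled antimiR replicate 4 in 21% O2 at P5, 8 skeletal muscle genes averaged 2.64, against -2.76 to -1.71 in the other mice of the group. Scrambled antimiR replicate 4 and antimiR-34a replicate 1 in 21% O2 at P14 differed in brightness from their groups. AntimiR-34a replicate 2 in 85% O2 at P14 stood high for several of the genes below. Calls that rest on one of these 4 arrays are given with the value without it. AntimiR-34a replicate 3 in 85% O2 at P5 was also dimmer than its group and is not among the 4. Its log2 75th percentile was 9.20 against 9.77 to 9.93, and it had the fewest probes well above background of all arrays (33606). The fits without the 4 arrays keep it.

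Matrix metalloproteinases are zinc-dependent endopeptidases, most of them secreted as inactive zymogens, that cut collagens, elastin, laminins, proteoglycans and many signalling proteins. Gelatinases, stromelysins, collagenases, the macrophage metalloelastase and membrane-type enzymes differ in their preferred substrates, and 1 enzyme often activates the zymogen of the next. TIMPs bind the active site of the mature enzymes and so set how much of the activity remains. In the lung these proteins are known for remodelling the matrix while septa form, and for the damage to elastic fibres in emphysema and in oxygen injury.

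The letters upstream of the stromelysin genes are shown because Mmp10 and Mmp3 gave some of the widest ranges of level in this set. RefSeq promoter sequence (GRCm38.p6) was matched for 8 of the 10 genes, all but Mmp2 and Mmp9, with 9 start sites. The 250 bases before each start were searched on both strands for TGAGTCA, the core that the Fos and Jun proteins (AP-1) recognise, whose reverse complement is TGACTCA. It was found in 3 of the 9 windows, and in 4.46% of all 32851 windows of the same length. In the sequences below, read 5′ to 3′ on the plus strand, the capitals mark these letters, which begin at position -63 for Mmp10 (chr9:7502092-7502341), -46 for Mmp3 (chr9:7445572-7445821) and -44 for 1 of the 2 starts of Mmp12 (chr9:7347124-7347373). A match of letters does not show that a factor binds there. The mature miR-34a-5p, the target of the antimiR, is shown with its seed (bases 2 to 8) in capitals.
Mmp10: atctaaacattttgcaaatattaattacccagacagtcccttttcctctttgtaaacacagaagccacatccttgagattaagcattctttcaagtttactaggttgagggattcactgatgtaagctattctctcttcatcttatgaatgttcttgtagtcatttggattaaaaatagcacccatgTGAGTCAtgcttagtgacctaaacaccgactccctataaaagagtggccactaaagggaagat
Mmp3: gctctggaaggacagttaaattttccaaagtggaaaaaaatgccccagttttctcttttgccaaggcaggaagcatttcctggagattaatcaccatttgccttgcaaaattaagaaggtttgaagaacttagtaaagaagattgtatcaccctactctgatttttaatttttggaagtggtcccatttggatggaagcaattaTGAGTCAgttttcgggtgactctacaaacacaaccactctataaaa
Mmp12: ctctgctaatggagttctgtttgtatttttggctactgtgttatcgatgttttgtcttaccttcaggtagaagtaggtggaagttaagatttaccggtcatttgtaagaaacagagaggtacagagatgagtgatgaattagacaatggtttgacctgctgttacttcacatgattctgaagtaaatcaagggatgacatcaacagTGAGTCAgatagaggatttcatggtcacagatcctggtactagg
mmu-miR-34a-5p: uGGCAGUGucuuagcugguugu

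4 of the 10 genes lie in 1 cluster of Mmp genes on chromosome 9, with other members of the cluster between some of them. In the array annotation (mm9) the probes of 10 Mmp genes fall within 414.9 kb there, in the order Mmp13, Mmp12, Mmp1b, Mmp3, Mmp1a, Mmp10, Mmp8, Mmp27, Mmp20 and Mmp7. The probe of Mmp10 lies at chr9:7510011-7510070, that of Mmp3 at chr9:7455751-7455810, that of Mmp8 at chr9:7568238-7568297 and that of Mmp12 at chr9:7352935-7352994. The others are spread over the genome, with Mmp2 at chr8:95376840-95376899, Mmp9 at chr2:164780620-164780679, Mmp14 at chr14:55058775-55058834, Timp1 at chrX:20451802-20451861, Timp2 at chr11:118163146-118163205 and Timp3 at chr10:85811696-85811755. 7 genes were well above background on all 32 arrays, Mmp3 on 23, Mmp10 on 14 and Mmp12 on 13. A 2nd Mmp12 probe was well above background on 0 arrays and is not used further.

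**Figure D1:**
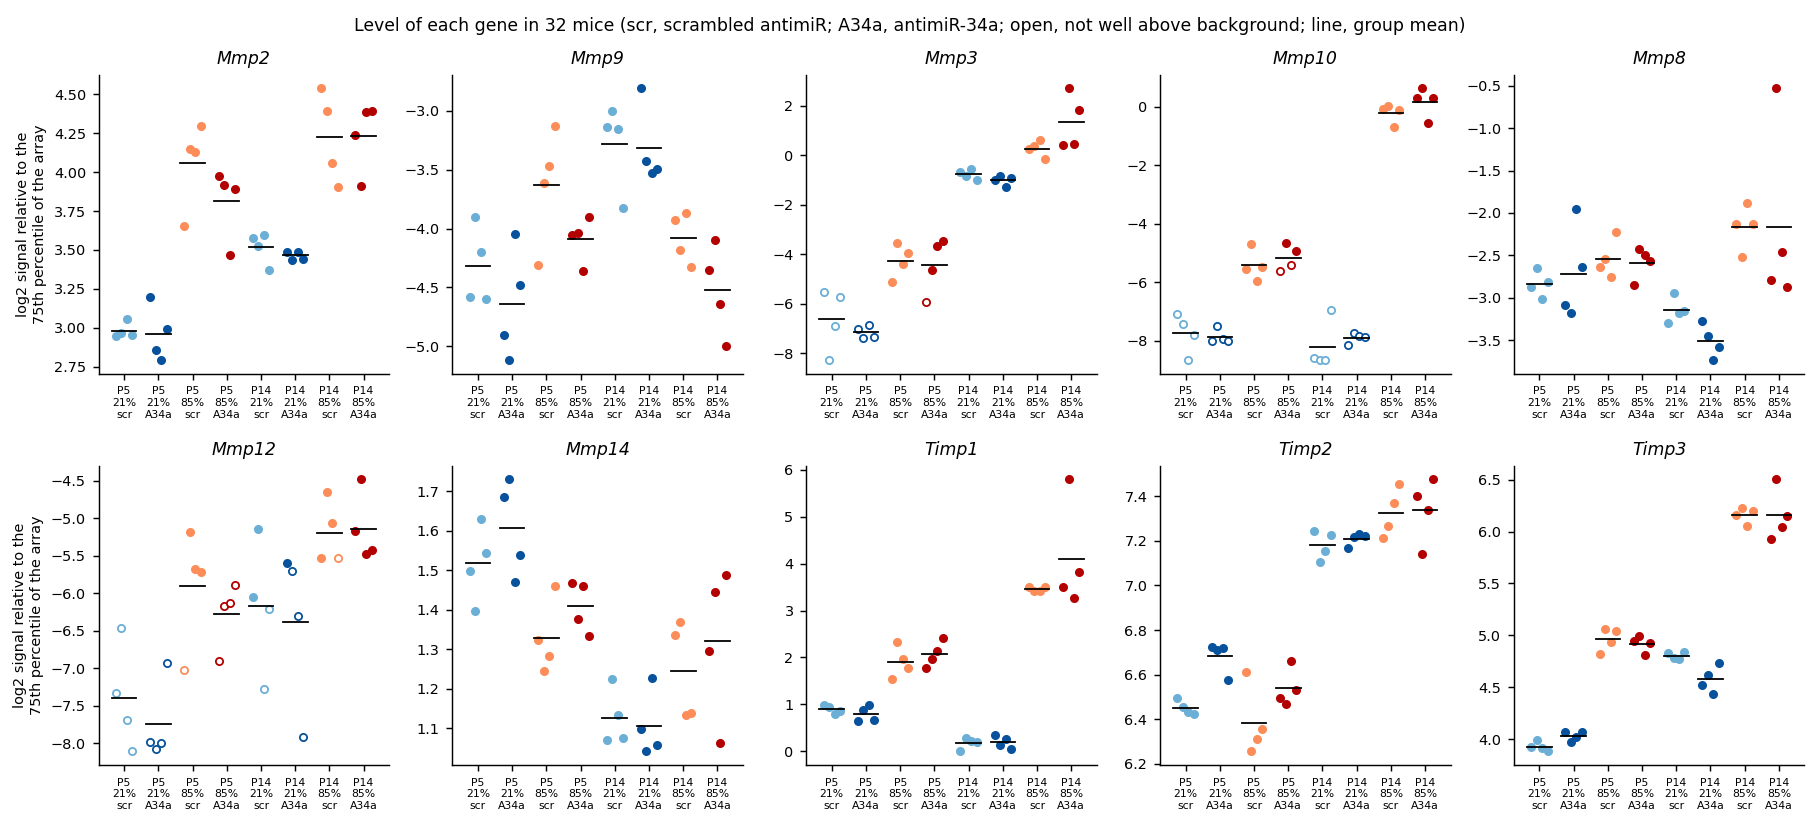
Level of each gene in each mouse (y axis, log2 signal with the array's 75th percentile set to 0) in the 8 groups (x axis: age, oxygen level and antimiR), with filled points well above background, open points not, and a line at the group mean. Mmp10 lies between -0.69 and 0.63 in all 8 mice kept in 85% O2 to P14 and at or below -6.94 in all 8 mice kept in 21% O2 at that age.

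Exposure to 85% O2 went with higher Mmp2, Timp1 and Timp3 at both ages and with both oligonucleotides. At P5 in scrambled antimiR mice 6 of 9 tested members were higher and 0 lower (Mmp2, Mmp3, Mmp9, Mmp10, Timp1 and Timp3), while 43.9% of all tested probes were called, 17.4% higher and 26.5% lower. In antimiR-34a mice at P5, 5 were higher and 1 lower of 9, against 46.6% of all probes, 17.1% higher and 29.5% lower. At P14, leaving out Mmp10, 5 were higher and 1 lower of 9 in scrambled antimiR mice (60.9% of all probes, 28.2% higher and 32.7% lower), and 6 were higher and 1 lower of 9 in antimiR-34a mice (65.5%, 27.6% higher and 37.9% lower).

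A probe entered the test if 1 group or more had all 4 of its arrays well above background for it. Mmp3 and Mmp10 passed that filter at P5, and Mmp12 at P14, only through a group kept in 85% O2, so their calls are no support for a trend. Among the members above background on all 8 arrays of a comparison, 4 of 7 were higher and 0 lower at P5 in scrambled antimiR mice, and 3 were higher and 1 lower of 7 in antimiR-34a mice. At P14, 5 of 8 were higher and 1 lower with either oligonucleotide. The median log2 difference of these members was 0.69 and 0.55 at P5 in scrambled antimiR and antimiR-34a mice and 0.84 and 1.06 at P14, where the medians over all tested probes were -0.07, -0.09, -0.07 and -0.12. Over probes well above background on every array of an age they were -0.05, -0.06, 0.03 and -0.002. Of 31505 such probes at P5, 6162 were higher and 8469 lower in scrambled antimiR mice, and 6046 and 9147 in antimiR-34a mice. Of 31315 at P14, 10253 were higher and 8884 lower, and 10128 and 9973. Calls are adjusted p under 0.05 in limma with Benjamini-Hochberg adjustment over all tested probes.

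The balance of higher and lower calls over all probes moved with the scaling. Under quantile normalization 7779 probes were higher and 6960 lower at P5 in scrambled antimiR mice, where the 75th percentile gave 6274 and 9538. In antimiR-34a mice the pairs were 7785 and 8077 against 6170 and 10612 at P5, and 13467 and 10587 against 10614 and 14583 at P14, where the median of all probes moved from -0.12 to 0.08. At P14 in scrambled antimiR mice normexp correction gave 10853 higher and 6633 lower against 10828 and 12572. Among the members, the sign of the oxygen difference turned under quantile normalization, normexp or the authors' table for Timp2 at P14 in scrambled antimiR mice and for no other.

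**Figure D2:**
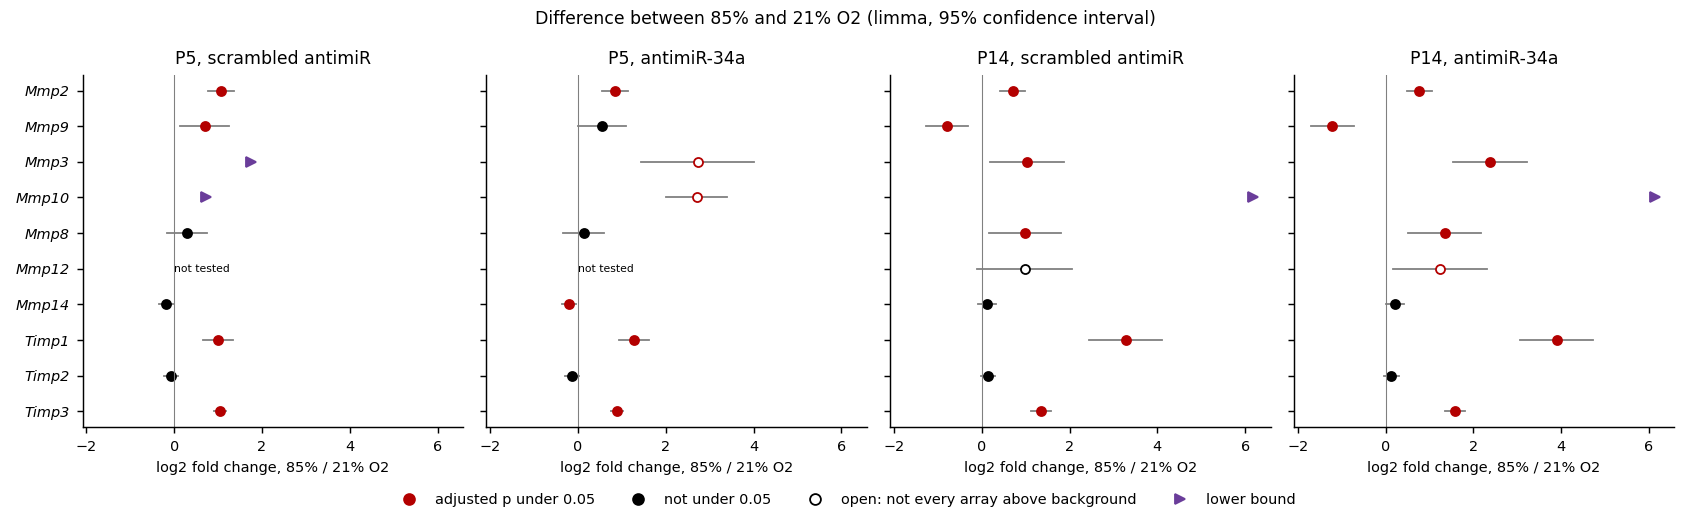
Log2 fold change of each gene between 85% and 21% O2 (x axis) with its 95% confidence interval, in 4 panels for age and antimiR, in red where the adjusted p was under 0.05. Triangles are lower bounds of the main scaling. They stand for genes below background on all 4 arrays in 21% O2 and above it on all 4 in 85% O2. Mmp10 at P14 carries no test. The points of Mmp12, and those of Mmp3 and Mmp10 in antimiR-34a mice at P5, rest partly on arrays not above background and give no size. The bounds of Mmp10 at P14 lie farthest to the right, followed by Timp1 with 3.28 and 3.90.

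Mmp2, gelatinase A, which is made mainly by fibroblasts, was higher in 85% O2 at both ages. At P5 its levels in scrambled antimiR mice were 2.95, 2.96, 3.06 and 2.95 in 21% O2 and 3.65, 4.15, 4.13 and 4.29 in 85% O2. No mouse in 85% O2 was as low as any in 21% O2, and the difference was 1.08 ± 0.14 (log2, SE, n = 4 per group, limma adjusted p = 3.18e-05), a 2.11-fold change. At P14 the difference was 0.70 ± 0.13 in scrambled antimiR mice (adjusted p = 0.00046) and 0.77 ± 0.13 in antimiR-34a mice (adjusted p = 0.000192), and again the groups did not overlap. In antimiR-34a mice at P5 it was 0.85 ± 0.14 (adjusted p = 0.000199). Of 10 fibroblast and myofibroblast markers, 8 were lower and 0 higher in 85% O2 at P5 in scrambled antimiR mice, where 26.5% of all probes were lower, and 7 were lower without replicate 4 in 21% O2, the mouse high for muscle genes. In antimiR-34a mice at P5, 4 were lower and 1 higher (29.5% and 17.1% of all probes). At P14, 4 were lower and 3 higher in scrambled antimiR mice (32.7% and 28.2% of all probes), and 3 and 2 in antimiR-34a mice (37.9% and 27.6%). The mean level of the list at P5 in scrambled antimiR mice was 3.85 to 4.61 in 21% O2, or up to 4.34 without that mouse, and 3.38 to 3.65 in 85% O2. The part of cell number in the Mmp2 level was not tested. In whole-lung RNA, fewer cells of a type and less RNA per cell cannot be told apart, which holds for every result here.

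Mmp9, gelatinase B, which neutrophils and macrophages store or secrete, differed between oxygen levels at both ages in scrambled antimiR mice, in opposite directions, but neither call held under every setting. At P5 in scrambled antimiR mice its levels were -4.58, -3.90, -4.20 and -4.60 in 21% O2 and -4.31, -3.61, -3.46 and -3.13 in 85% O2, so 1 mouse in 85% O2 lay among those in 21% O2. The difference was 0.69 ± 0.26 (adjusted p = 0.0419), and it was not called when replicate 1, 3 or 4 of the 21% O2 group was left out (adjusted p = 0.105, 0.0587 and 0.104). It was also lost without replicate 2, 3 or 4 of the 85% O2 group (adjusted p = 0.0785, 0.0965 and 0.129), and without antimiR-34a replicate 1 in 85% O2 (adjusted p = 0.0508). In antimiR-34a mice at P5 the difference was 0.55 ± 0.26 (adjusted p = 0.0962), so it was not called. Of 9 macrophage markers, 5 were higher and 2 lower in 85% O2 at P5 in scrambled antimiR mice, against 17.4% and 26.5% of all probes. The mean of that list was 1.36, 1.48, 1.22 and 1.38 in 21% O2 and 1.34, 1.75, 1.65 and 1.95 in 85% O2. In 85% O2 the same mice were lowest and highest for the list and for Mmp9. In 21% O2 replicate 2 was highest for both, but replicate 3 was lowest for the list and replicate 4 for Mmp9. In antimiR-34a mice in 85% O2 at P5, replicate 3 was lowest for both. Highest there were replicate 1 for the list (1.94) and replicate 4 for Mmp9 (-3.90). Of 9 neutrophil markers in scrambled antimiR mice at P5, 0 were higher and 2 lower in 85% O2. The part of these cells in the Mmp9 level was not tested.

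At P14 Mmp9 was lower in 85% O2. Its levels in scrambled antimiR mice were -3.13, -3.00, -3.15 and -3.83 in 21% O2 and -3.93, -4.18, -3.87 and -4.33 in 85% O2, with no overlap. The difference was -0.80 ± 0.23 (adjusted p = 0.0073), and in antimiR-34a mice -1.21 ± 0.23 (adjusted p = 0.000332). Under quantile normalization these were -0.51 (adjusted p = 0.18) and -0.59 (adjusted p = 0.117), and neither was called. The authors' table gave the same picture (adjusted p = 0.179 and 0.118), and normexp correction gave -0.24 (adjusted p = 0.0909) in scrambled antimiR mice. Neutrophil markers went both ways: of the 9 measured in scrambled antimiR mice at P14, 3 were higher in 85% O2 (Camp, Cxcr2 and Elane) and 1 lower (Retnlg), against 28.2% and 32.7% of all probes, and the mean of the list was -0.83 to -0.46 in 21% O2 and -1.01 to 0.00 in 85% O2. Their part in the Mmp9 level was not tested.

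Mmp10, stromelysin 2, an enzyme that cuts laminin and proteoglycans and activates other proenzymes, was not well above background on any of the 16 arrays in 21% O2. At P14 in 85% O2 its levels were -0.08, 0.02, -0.69 and -0.12 in scrambled antimiR mice and 0.29, 0.63, -0.57 and 0.29 in antimiR-34a mice, well above background on all 8 arrays. The bound is the mean of the bright group against a dim group in which each array was raised to its faintest probe well above background, where the dim probe lay under it. By that bound the level was at least 72.8-fold higher in 85% O2 in scrambled antimiR mice and at least 70.1-fold higher in antimiR-34a mice. Under normexp background correction with an offset of 50, which pulls dim probes together, the fitted log2 differences were 3.67 and 3.84, well under these bounds, so the size depends on how background is treated. These values chose the gene and carry no test.

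At P5, an age that the choice of Mmp10 did not use, the levels in scrambled antimiR mice in 85% O2 were -5.54, -4.69, -5.97 and -5.48, above background on all 4 arrays. Those in 21% O2 were -7.10, -7.42, -8.65 and -7.79, all below it. By the same bound the level was at least 1.64-fold higher in 85% O2 under the main scaling. Because this group alone brought Mmp10 into the test (limma adjusted p = 6.45e-05), the fit of all probes with no filter on dim ones is the one to read, and it gave an adjusted p of 0.000172. In antimiR-34a mice 2 of 4 arrays in 85% O2 and 0 of 4 in 21% O2 were above background, so no fold is given, and the limma fit with no filter gave an adjusted p of 4.37e-05. Under normexp correction the fitted log2 differences at P5 were 0.41 and 0.42, with the calls unchanged. The value of 0.41 lies under the bound of 1.64-fold, so this size too depends on how background is treated. Mmp10 was thus detected in 85% O2 at both ages, low at P5 and near the 75th percentile of the array at P14.

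Mmp3, stromelysin 1, which has a substrate range much like that of Mmp10, was also dim at P5, but it was present at P14 in both oxygen levels. At P5 in scrambled antimiR mice the levels in 85% O2 were -5.12, -3.55, -4.39 and -3.95, against 4 arrays below background in 21% O2. By the bound used for Mmp10 it was at least 3.35-fold higher under the main scaling (limma adjusted p = 0.00569). In antimiR-34a mice 3 of 4 arrays in 85% O2 and 0 of 4 in 21% O2 were above background. Since Mmp3 too came into the P5 test through the 85% O2 scrambled antimiR group alone, the limma fit with no filter is given as well, with adjusted p = 0.0112 and 0.00414. The methods' t-test did not call the scrambled antimiR difference (adjusted p = 0.069), and normexp correction gave a log2 difference of 0.55 (adjusted p = 0.0191). That value lies under the bound of 3.35-fold, so the size depends on how background is treated.

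At P14 the Mmp3 levels in scrambled antimiR mice were -0.69, -0.84, -0.55 and -1.01 in 21% O2 and 0.23, 0.36, 0.59 and -0.17 in 85% O2. The groups did not overlap and the difference was 1.03 ± 0.39 (adjusted p = 0.0353), a 2.04-fold change. Leaving out any 1 of 6 scrambled antimiR mice (replicates 1, 2 or 4 in 21% O2 and 1, 2 or 3 in 85% O2) gave an adjusted p between 0.0562 and 0.0864. In antimiR-34a mice the levels were -1.01, -0.85, -1.29 and -0.93 in 21% O2 and 0.42, 2.70, 0.46 and 1.81 in 85% O2. That difference was 2.37 ± 0.39 (adjusted p = 0.000128), and 1.92 without replicate 2 of the 85% O2 group, which held the level of 2.70.

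Mmp8, the neutrophil collagenase, did not pass the test at P5, with differences of 0.30 ± 0.21 (adjusted p = 0.281) and 0.13 ± 0.21 (adjusted p = 0.645). At P14 the levels in scrambled antimiR mice were -3.30, -2.94, -3.18 and -3.15 in 21% O2 and -2.13, -2.52, -1.88 and -2.13 in 85% O2, with no overlap. The difference was 0.98 ± 0.38 (adjusted p = 0.0395). The spread it was tested against came mostly from 1 mouse of the antimiR-34a group, replicate 2 in 85% O2, with a level of -0.53 against -2.88 to -2.46 in the other mice. Without that mouse, which is in neither scrambled antimiR group, the adjusted p of the scrambled antimiR difference was 7.26e-05, and the antimiR-34a difference went from 1.34 (adjusted p = 0.00701) to 0.80 (adjusted p = 0.000669).

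Leaving out 1 of 7 scrambled antimiR mice, however, gave adjusted p values for the Mmp8 difference at P14 between 0.0519 and 0.0912. In antimiR-34a mice at P14, 1 of the 9 neutrophil markers was higher in 85% O2 (Elane) and 2 were lower (Ngp and Retnlg), against 27.6% and 37.9% of all probes, and the mean of the list was -1.15 to -0.59 in 21% O2 and -1.68 to -0.82 in 85% O2. The part of neutrophils in the Mmp8 level was not tested.

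Mmp12, the macrophage metalloelastase, was dim throughout, and at P5 it was not tested because no group had all 4 arrays above background. At P14 in 85% O2 its levels were -5.53, -4.65, -5.06 and -5.53 in scrambled antimiR mice (3 of 4 above background) and -5.17, -4.48, -5.47 and -5.42 in antimiR-34a mice (4 of 4). In 21% O2 the numbers above background were 2 of 4 and 1 of 4. Several of the arrays compared were thus not above background, so no size is given. Mmp12 came into the test through the 85% O2 antimiR-34a group alone, where limma gave an adjusted p of 0.0414, and with no filter on dim probes it was not called (adjusted p = 0.0562). In scrambled antimiR mice it was not called either (adjusted p = 0.106), except under quantile normalization (adjusted p = 0.0112) and some other settings. The antimiR-34a call was also lost in 7 of the 16 fits that left out 1 array, with the largest adjusted p without replicate 4 of the 21% O2 group (0.144) and replicate 2 of the 85% O2 group (0.115).

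Macrophage markers went both ways beside Mmp12. In scrambled antimiR mice at P14, 5 of the 9 measured were higher in 85% O2 and 3 lower, against 28.2% and 32.7% of all probes. Higher were, among others, the scavenger receptor Marco (2.40, adjusted p = 4.88e-07) and Cd68 (0.87, adjusted p = 2.28e-05). Lower were Siglecf (-2.73, adjusted p = 2.2e-09), Ear2 (-2.32, adjusted p = 6.88e-09) and Chil3 (-2.42, adjusted p = 0.000279). The mean of the list was 2.13 to 2.42 in 21% O2 and 1.82 to 2.42 in 85% O2. Its part in the Mmp12 level was not tested.

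**Figure D3:**
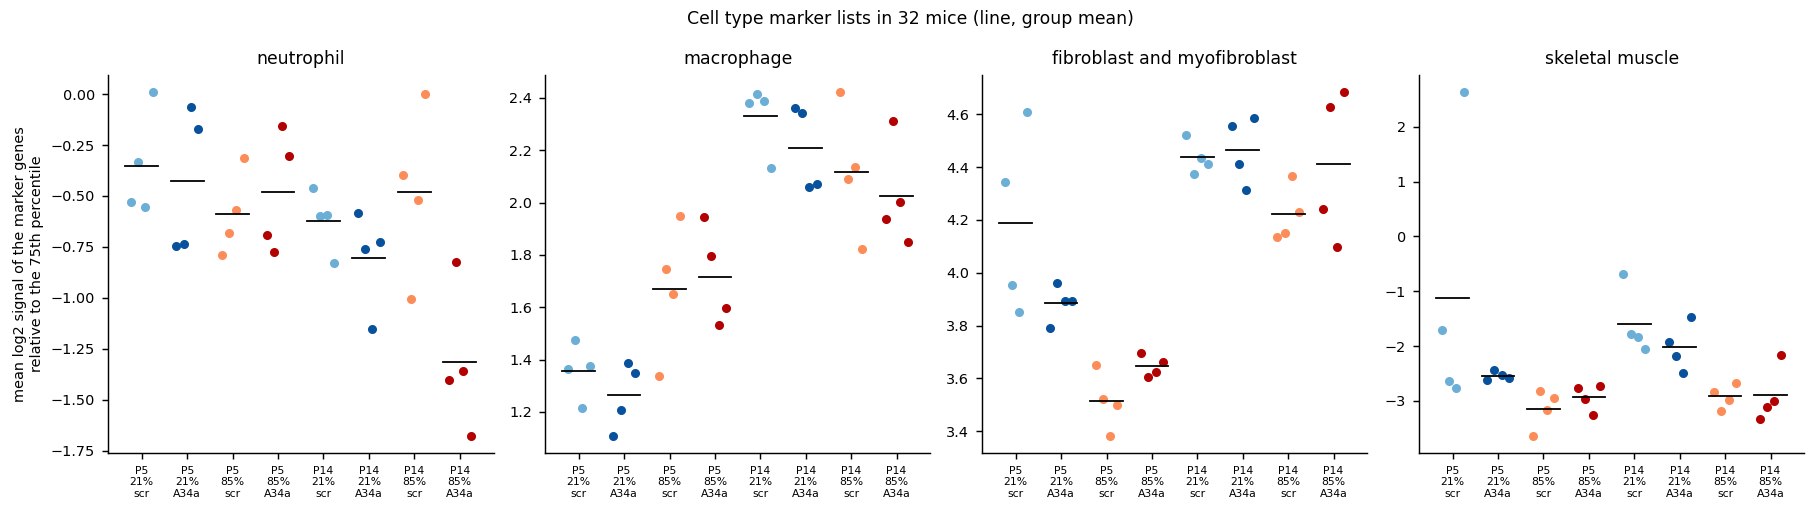
Mean log2 level of the genes of 4 cell type marker lists in each mouse (y axis, with the array's 75th percentile set to 0) in the 8 groups (x axis), with a line at the group mean. Neutrophil markers have their lowest group mean in antimiR-34a mice in 85% O2 at P14 (single mice -1.68 to -0.82), and 1 scrambled antimiR mouse in 21% O2 at P5 stands at 2.64 for skeletal muscle.

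Of the other genes in the chromosome 9 cluster, Mmp13 and Mmp27 could be tested for oxygen, Mmp27 at P14 alone. Mmp13, collagenase 3, which lies at the end next to Mmp12, was higher in 85% O2 in scrambled antimiR mice at P5 (1.19, adjusted p = 0.0108) and in both antimiR groups at P14 (1.08 and 1.60, adjusted p = 0.0182 and 0.00141), and in antimiR-34a mice at P5 the difference was -0.02 (adjusted p = 0.964). The change of the Mmp13 difference with antimiR-34a at P5 was not called (-1.22 ± 0.48, limma adjusted p = 0.385). Mmp27, next to Mmp8, gave -0.30 and -0.21 at P14 (adjusted p = 0.169 and 0.313), and whether it differed from its neighbours was not tested. Mmp1a and Mmp7 were above background on 0 of 32 arrays, Mmp20 on 1 and Mmp1b on 3, so nothing can be said of them.

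Mmp14, the membrane-type enzyme that activates the Mmp2 zymogen, moved little. Its levels at P5 in scrambled antimiR mice ran from 1.40 to 1.63 in 21% O2 and from 1.24 to 1.46 in 85% O2, and these ranges overlapped. In antimiR-34a mice they ran from 1.47 to 1.73 in 21% O2 and from 1.33 to 1.47 in 85% O2, where the lowest of the former (1.4699) lay just above the highest of the latter (1.4682). The difference at P5 was -0.19 ± 0.07 in scrambled antimiR mice (adjusted p = 0.05, just above the threshold) and -0.20 ± 0.07 in antimiR-34a mice (adjusted p = 0.0415). The latter was lost when any of 6 mice was left out, and under the methods' t-test (adjusted p = 0.0912). At P14 the differences were 0.12 ± 0.09 (adjusted p = 0.295) and 0.22 ± 0.09 (adjusted p = 0.0576).

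Timp1, an inducible secreted inhibitor of many metalloproteinases, gave the largest tested oxygen difference of the members at P14. At P5 its levels in scrambled antimiR mice were 0.99, 0.95, 0.80 and 0.86 in 21% O2 and 1.53, 2.32, 1.98 and 1.77 in 85% O2. The groups did not overlap, and the difference was 1.00 ± 0.16 (adjusted p = 0.000176), with 1.28 ± 0.16 in antimiR-34a mice (adjusted p = 1.83e-05). At P14 the levels in scrambled antimiR mice were 0.00, 0.28, 0.23 and 0.20 in 21% O2 and 3.50, 3.41, 3.41 and 3.51 in 85% O2. The 4 mice of each group lay close together and far from the other group.

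The Timp1 difference at P14 was 3.28 ± 0.39 (adjusted p = 8.28e-06), a 9.71-fold change. In antimiR-34a mice the levels were 0.36, 0.13, 0.26 and 0.05 in 21% O2 and 3.50, 5.79, 3.27 and 3.81 in 85% O2, where replicate 2 stood above the rest. The difference was 3.90 ± 0.39 (adjusted p = 1.65e-06), a 14.9-fold change, and 3.33 without that mouse (adjusted p = 9.12e-10).

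Timp2, a constitutive inhibitor that also takes part in the activation of Mmp2, was read by 2 probes that disagreed. On the brighter probe no oxygen difference was called, with -0.07 ± 0.07 and -0.14 ± 0.07 at P5 (adjusted p = 0.477 and 0.129) and 0.14 ± 0.08 and 0.13 ± 0.08 at P14 (adjusted p = 0.119 and 0.153). On the other probe, which the annotation does not place in the genome, the differences were 0.27 ± 0.11 (adjusted p = 0.0503) and 0.30 ± 0.11 (adjusted p = 0.0305) at P5 and 0.37 ± 0.11 (adjusted p = 0.0104) and 0.51 ± 0.11 (adjusted p = 0.00109) at P14. At P5 the probes thus differed in sign, and an oxygen effect on Timp2 cannot be stated from them.

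Timp3, the inhibitor that stays bound to the extracellular matrix and also blocks several ADAM proteases, was higher in 85% O2 in every comparison. At P5 its levels in scrambled antimiR mice were 3.92, 3.99, 3.92 and 3.88 in 21% O2 and 4.82, 5.06, 4.94 and 5.04 in 85% O2. At P14 they were 4.83, 4.78, 4.77 and 4.84 against 6.16, 6.23, 6.06 and 6.20. The groups lay well apart at both ages, with differences of 1.04 ± 0.06 (adjusted p = 3.54e-08) and 1.36 ± 0.11 (adjusted p = 2.02e-07). In antimiR-34a mice they were 0.89 ± 0.06 (adjusted p = 1.24e-07) and 1.58 ± 0.11 (adjusted p = 4.96e-08).

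In scrambled antimiR mice kept in 21% O2, 6 of 10 members were higher at P14 than at P5 and 2 were lower, while 51.4% of all probes were called, 27.7% higher and 23.8% lower. Over all probes the main scaling gave 10832 higher and 9307 lower, and quantile normalization 9514 and 10969. Mmp3 showed the widest change, from 4 arrays below background at P5 to levels of -1.01 to -0.55, at least 37.4-fold under the main scaling (adjusted p = 2.1e-09). Normexp correction gave a log2 difference of 2.89 (adjusted p = 1.19e-08), which lies under that bound, so the size depends on how background is treated. Mmp10, its neighbour, was below background on all 8 arrays of these groups. Mmp9 was higher at P14 by 1.04 ± 0.25 (adjusted p = 0.00119), Timp3 by 0.88 ± 0.09 (adjusted p = 6.65e-09), Timp2 by 0.73 ± 0.07 (adjusted p = 1.15e-08) and Mmp2 by 0.54 ± 0.14 (adjusted p = 0.00215). The 2nd Timp2 probe gave 0.75 ± 0.11 (adjusted p = 3.33e-06).

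Mmp14 was lower at P14 by a log2 difference of -0.39 ± 0.08 (adjusted p = 0.00035). Mmp12 was above background on 2 of 4 arrays at P14 and 0 of 4 at P5, so no size is given, and its call (adjusted p = 0.0331) was lost when any of 6 mice was left out. The Timp1 fall, -0.72 ± 0.30 (adjusted p = 0.0496), was lost in 28 of the 32 fits without 1 array. Mmp8 gave -0.31 ± 0.32 (adjusted p = 0.441).

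The oxygen difference itself changed between P5 and P14 for 4 of 9 members in scrambled antimiR mice, against 40.8% of all probes (22.8% more positive and 18% more negative at P14). For Timp1 it was larger at P14 by 2.28 ± 0.43 (adjusted p = 0.000178), and for Mmp9 it turned from positive to negative, by -1.49 ± 0.36 (adjusted p = 0.00164). Both were called in each fit that left out 1 array. The differences of Mmp14 (0.31 ± 0.12, adjusted p = 0.0379) and Timp3 (0.32 ± 0.12, adjusted p = 0.0364) were smaller, and leaving out 1 array ended the call of Mmp14 in 9 of 32 fits and that of Timp3 in 8. Without scrambled antimiR replicate 2 in 85% O2 at P14, 2 members were called, and likewise without scrambled antimiR replicate 3 in 85% O2 at P5. Neither Mmp14 nor Timp3 was called under quantile normalization.

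With antimiR-34a set against the scrambled sequence, limma called 0 members in all 4 comparisons, where 0.136% of all probes were called in 21% O2 at P5, 0.0639% in 85% O2 at P5, 0% in 21% O2 at P14 and 2.67% in 85% O2 at P14. The count of members with an unadjusted p under 0.05 was 1 of 9, 0 of 9, 1 of 10 and 1 of 10. The methods' t-test called 0 members in each. Over all probes, an unadjusted p under 0.05 was found for 6322 and 4716 of 35981 at P5 in 21% and 85% O2. At P14 it was found for 4032 and 6356 of 38452. In 21% O2 at P14 the methods' t-test, like limma, called 0 of all probes. That count was not stable, since array weights called 9971 probes there (with 2 members, Mmp10 and Timp3) and leaving out the 4 arrays that stood apart 6347 (with 1 member, Mmp10, which was below background in both groups). The log2 differences of the members ranged from -0.54 (Mmp3) to 0.23 (Timp2) and from -0.46 (Mmp9) to 0.26 (Mmp10) at P5 in 21% and 85% O2, and from -0.37 (Mmp8) to 0.32 (Mmp10) and from -0.45 (Mmp9) to 1.09 (Mmp3) at P14. In 21% O2 the end values of Mmp3 at P5 and of Mmp10 at P14 are differences between readings not above background on any array, and in 85% O2 at P5 Mmp10 was above it on 2 of 4 antimiR-34a arrays, so these are no measured changes.

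**Figure D4:**
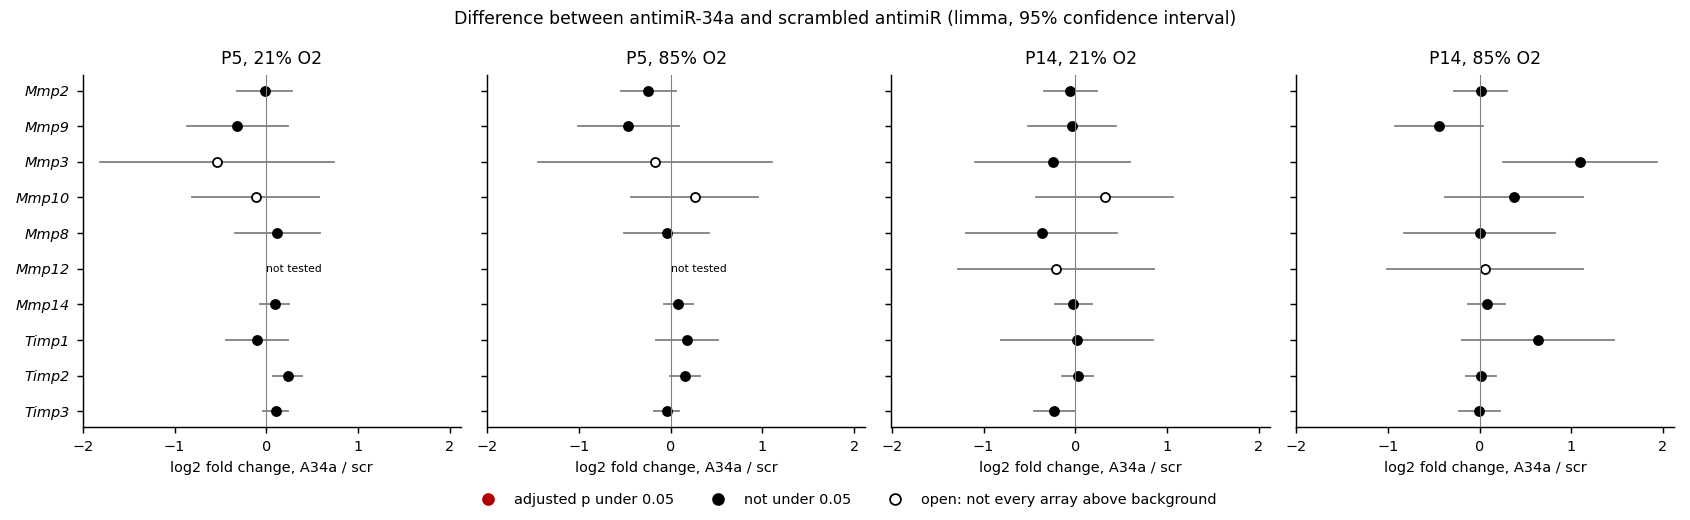
Log2 fold change of each gene between antimiR-34a and scrambled antimiR (x axis) with its 95% confidence interval, in 4 panels for age and oxygen level, with open points where not every array was above background. No gene had an adjusted p under 0.05, and the widest intervals belong to Mmp3 at P5, with 1.28 on either side.

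The smallest p values of the members belonged to Timp2, Timp3 and Mmp3. Timp2 in 21% O2 at P5 had levels of 6.49, 6.45, 6.43 and 6.42 with scrambled antimiR and 6.73, 6.71, 6.72 and 6.57 with antimiR-34a, with no overlap, and the difference was 0.23 ± 0.07 (adjusted p = 0.166). Its other probe gave -0.09 ± 0.11 (adjusted p = 0.658). Timp3 in 21% O2 at P14 differed by -0.23 ± 0.11 (adjusted p = 0.475), and it was called under array weights (adjusted p = 0.0377) but not without the 4 arrays that stood apart (adjusted p = 0.182). Mmp3 in 85% O2 at P14 differed by 1.09 ± 0.39 (adjusted p = 0.169), and by 0.64 without replicate 2 of the antimiR-34a group (adjusted p = 0.261). Timp1 there differed by 0.64 ± 0.39, with a 95% confidence interval of -0.19 to 1.47 (adjusted p = 0.448), and by 0.07 without that mouse.

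The change of the antimiR effect with oxygen was called for 0 of 9 members at either age (0.0556% of all probes at P5 and 0.0884% at P14). An unadjusted p under 0.05 was found for 0 members at P5 and 1 at P14, against 3893 of 35981 and 5758 of 38452 probes. That member was Mmp3 at P14 (1.34 ± 0.55, adjusted p = 0.293), with a value of 0.89 without antimiR-34a replicate 2 in 85% O2. Beside these values, 2 of 9 neutrophil markers were lower with antimiR-34a in 85% O2 at P14, Camp (-1.69, adjusted p = 0.0145) and Ngp (-2.21, adjusted p = 0.0163), while Mmp8 differed by 0.00 ± 0.38 with a 95% confidence interval of -0.82 to 0.82, and Mmp9 by -0.45 ± 0.23 (adjusted p = 0.346). The Mmp8 value rested on antimiR-34a replicate 2. Without that mouse Mmp8 differed by -0.55 ± 0.16 (limma adjusted p = 0.0759) and Mmp9 by -0.59 ± 0.23 (adjusted p = 0.197), and 5 of the 9 neutrophil markers were lower, Camp, Ngp, Retnlg, S100a8 and S100a9, where 3.57% of all probes were called, 2.03% lower. The part of neutrophils in these values was not tested. The Mmp14 levels in that comparison overlapped (0.08 ± 0.09, adjusted p = 0.74).

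Over the 32 arrays the levels of Mmp10 ran close to those of Fxyd5 (Pearson r = 0.975) and Inhba (r = 0.974), the latter encoding the activin A subunit. Those of Timp1 ran closest to Trmt61a (r = 0.984), Bysl (r = 0.981) and Inf2 (r = 0.981). Those of Timp3 ran closest to Trnp1 (r = 0.982), Dbndd2 (r = 0.981) and Ccdc184 (r = 0.978). All these points share the 8 groups and the 4 slides, so the values describe a common pattern over groups and no more.

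A further 52 genes of matrix proteolysis, in 7 lists, were on the array, and 42 were tested at each age. In 85% O2, 15 were higher and 8 lower at P5 in scrambled antimiR mice, where 17.4% of all probes were higher and 26.5% lower, and 16 and 9 in antimiR-34a mice (17.1% and 29.5% of all probes). At P14 the counts were 23 and 7 (28.2% and 32.7% of all probes), and 26 and 8 (27.6% and 37.9%). With antimiR-34a, 0 of 42 were called at either age and oxygen level, and the oxygen difference changed with age for 25 of 43, 17 more positive and 8 more negative at P14, against 40.8% of all probes.

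The plasminogen system, whose protease plasmin activates several of these zymogens, included some of the larger differences. Plau, the urokinase gene, was higher in 85% O2 by 1.36 ± 0.27 at P5 (adjusted p = 0.00107) and 2.76 ± 0.12 at P14 (adjusted p = 8.21e-10) in scrambled antimiR mice. Of the 7 genes of that list tested, 5 were higher and 0 lower at P5, and 4 were higher and 1, Serpinb2, lower at P14 (-1.86 ± 0.66, adjusted p = 0.0254).

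Genes that restrain or bind metalloproteinases moved in both directions. Reck, a membrane-anchored inhibitor, was lower by -0.34 ± 0.07 at P5 (adjusted p = 0.00126) and by -1.59 ± 0.09 at P14 (adjusted p = 9.93e-09), and A2m, a protease trap, by -1.85 ± 0.34 at P14 (adjusted p = 0.000342). Lcn2, whose product binds Mmp9, was higher by 2.79 ± 0.12 at P14 (adjusted p = 8.7e-10). Of 7 tested, 1 was higher and 1 lower at P5, and 4 and 3 at P14.

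Other secreted and membrane-type enzymes moved in both directions. Mmp19 was higher by 0.74 ± 0.20 at P5 (adjusted p = 0.00877) and 1.31 ± 0.21 at P14 (adjusted p = 0.000124). Mmp15 was lower at P14 by -0.68 ± 0.10 (adjusted p = 6.21e-05), and Mmp17 was lower at P5 by -0.55 ± 0.09 (adjusted p = 0.000158) and higher at P14 by 0.22 ± 0.09 (adjusted p = 0.0489). Of 13 ADAM and ADAMTS genes, 3 were higher and 4 lower at P5, and 8 and 2 at P14. Adamts5, an aggrecanase, was lower by -2.00 ± 0.18 at P14 (adjusted p = 6.42e-07) and Adam12 was higher by 1.39 ± 0.15 (adjusted p = 4.98e-06).

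Among 8 elastases and cathepsins, 4 were higher and 2 lower at P5, and 4 and 0 at P14. The lysosomal protease Ctsd was higher by 0.78 ± 0.10 at P5 (adjusted p = 2.96e-05) and 1.16 ± 0.08 at P14 (adjusted p = 4.11e-08), Ctsb by 0.97 ± 0.08 at P14 (adjusted p = 2.77e-07), and Ctsg, cathepsin G of neutrophils and mast cells, by 1.81 ± 0.31 at P14 (adjusted p = 0.000193). All values of these lists are for scrambled antimiR mice unless said otherwise.

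**Figure D5:**
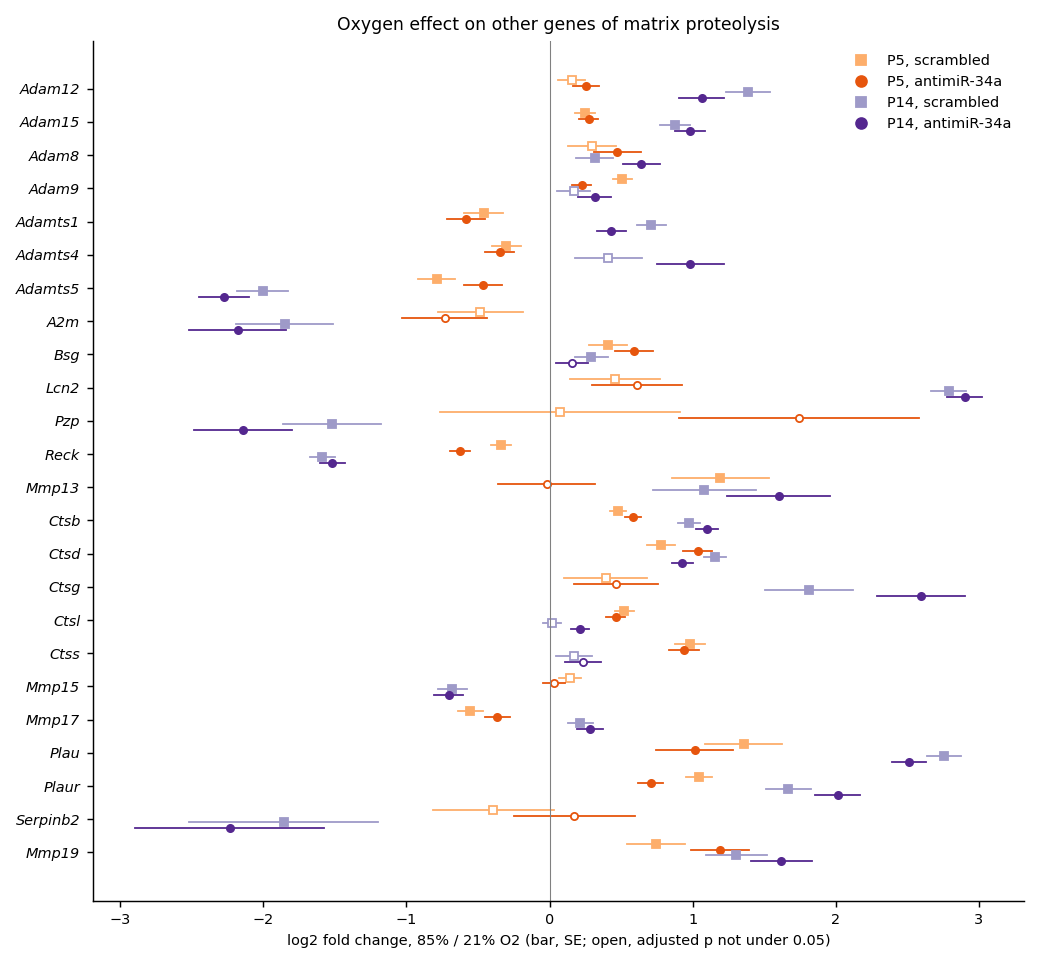
Log2 fold change between 85% and 21% O2 (x axis, bar of 1 SE) for genes named from the 7 lists (y axis), with squares for scrambled antimiR, circles for antimiR-34a, and open symbols where the adjusted p was not under 0.05. Lcn2 at P14 lies farthest to the right (2.79 and 2.90) and Adamts5 at P14 lies at -2.00 and -2.28.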

How the data were processed

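RNA of perfused whole lungs was labelled with Cy3 and hybridised to one-colour Agilent mouse arrays of 62976 spots. Per the file headers, the deposited files hold spot intensity on a linear scale from Agilent Feature Extraction 10.7.3.1, background-subtracted and not normalized between arrays. The authors' series table, used as an alternative, holds log2 values whose columns share 1 distribution, which is what quantile normalization leaves. Its correlation with the log2 intensity of each array was at least 0.997.

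Each processed intensity was put on the log2 scale and centred on its array's 75th percentile. Control spots and outlier spots (0.211%) were left out and spots of a probe averaged. No spot was saturated. Of several probes of a gene, the brightest tested one gave the values. Linear models were fitted in R 4.3.3 with limma 3.58.1, after reading with the data.table package (version 1.17.8), with 1 mean per group, over the 16 arrays of an age or all 32 across ages. P-values were adjusted by Benjamini-Hochberg over all tested probes (35981 at P5, 38452 at P14, 39159 across ages). Scripts were tested on simulated data. Precision is limited by the number of arrays.

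Members, lists, named genes and tests were chosen with earlier results of these data known. Named genes were the members, up to 3 called genes of each list with the largest change per oxygen comparison, and the 3 probes most correlated with Mmp10, Timp1 and Timp3, of which 1 gene is not reported here. Alternatives covered normalization, filters, the methods' t-test, which samples were fitted together, array weights, a replicate block, the 75th percentile as a covariate, the probe of a gene and each array left out. Leaving out 4 arrays together was chosen after seeing the data.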

Additional observations from a re-analysis of the deposited data

Results flagged for a closer look

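In 5 of 97 groups of 4 values tested, 1 mouse lay farther from the rest than Dixon's limit allows, and chance alone flags about 1 in 20. Mmp2 in scrambled antimiR mice in 21% O2 at P5 was 3.06 in replicate 3, against 2.95 to 2.96 in the others. Mmp2 in antimiR-34a mice in 85% O2 at P5 was 3.47 in replicate 3, against 3.89 to 3.98. Mmp9 in antimiR-34a mice in 21% O2 at P14 was -2.81 in replicate 1, against -3.53 to -3.42. Timp2 in antimiR-34a mice in 21% O2 at P5 was 6.57 in replicate 4, against 6.71 to 6.73. The macrophage markers averaged 2.13 in scrambled antimiR replicate 4 in 21% O2 at P14, against 2.38 to 2.42.

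The oxygen difference in scrambled antimiR mice differed between P14 and P5, by the interaction term of limma, for Timp1 (2.28), Mmp9 (-1.49), Timp3 (0.32) and Mmp14 (0.31).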

How the results depend on the processing

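Of the recomputed counts of called members, 11 moved by over 1.5 times, given here; the cause was not tested. Without the filter on dim probes, 2 members were called for the age by oxygen difference, under array weights 7, and with a change of at least 2-fold 2. Leaving out 1 array gave 2 to 5. That fold threshold left 3 called for oxygen in antimiR-34a mice at P5, 3 in scrambled antimiR mice at P14 and 3 for age. With the compared groups alone in the fit, 3 were called for oxygen in antimiR-34a mice at P5, where Mmp3 and Mmp10 were then not tested and Mmp14 was no longer called (adjusted p = 0.0673). For antimiR-34a in 21% O2 at P14, array weights called 2 (Mmp10 and Timp3), and 1 (Mmp10, below background in both groups) was called without the 4 arrays that stood apart.

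Signs turned for differences that were not called: Timp2 between oxygen levels at P5 with the mean of both probes (0.10 and 0.079) and at P14 in scrambled antimiR mice under quantile normalization (-0.052) and in the authors' table (-0.055), and Mmp8 in antimiR-34a mice at P5 without replicate 2 of the 21% O2 group (-0.025, and up to 0.38 without another mouse). Under normexp the Mmp10 difference at P14 fitted as 3.67 and 3.84.

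Same-numbered replicates did not pair (32 pairs, r of -0.355 to 0.5, 7 over 0.1, own number closest in 10). A replicate block gave 6, 5, 7 and 7 called members for oxygen (P5 then P14, scrambled first) and 0 for antimiR-34a.

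Counts over all probes moved widely between settings for antimiR-34a: 1 to 916 (reported 49) and 0 to 4318 (23) at P5 in 21% and 85% O2, 0 to 9971 (0) and 0 to 1679 (1025) at P14, and 4 to 59 (20) and 0 to 6445 (34) for its change with oxygen. For the age by oxygen difference normexp gave 8847 more positive and 4414 more negative against 8919 and 7055. Signal over background limits Mmp3, Mmp10 and Mmp12.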
